A study of Mus musculus with 21 samples.

Results

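The clustered protocadherin genes of the mouse are the Pcdha, Pcdhb and Pcdhg genes, which lie one after another on chromosome 18. Every H3K4me1 region of the deposited table whose nearest gene has a name starting with Pcdha, Pcdhb or Pcdhg was taken, at any distance, which gave 83 of 186824 regions. They carry 57 gene names, with 21 regions in the alpha cluster (chr18:36929688-37191563, mm10), 28 in the beta cluster (chr18:37264157-37576847) and 34 in the gamma cluster (chr18:37652281-37830225). By the class the table gives, 61 regions were exonic, 20 intronic, 1 in a 3′ UTR, 1 at a promoter and 0 intergenic. The gene that gives a region its name is the closest one and may not be the one the region serves.

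The assay was CUT&RUN for H3K4me1, a histone mark of enhancers and of the flanks of active promoters, on embryonic stem cells of the mouse; an antibody-guided nuclease releases the marked chromatin for sequencing. Cells were in the formative state, 63 h after LIF and the 2 inhibitors of the naive medium were withdrawn, or in the naive state held by them. The genotypes were DKO, which lacks both MLL3 and MLL4, the main monomethyltransferases of H3K4 at enhancers; dCD, with CD alleles of both enzymes, read as catalytically dead; a floxed line, which lacks MLL3 and carries floxed alleles of MLL4, so that the DKO differs from it in MLL4; and wild type (WT). Each of the 8 groups of genotype and state had 2 libraries, but the table holds 1 value per group for both together. No spread between replicates can be computed from it, so differences between groups carry no test and no p, and are described by size. The dCD and WT cells bear the line label R1, while the DKO and floxed cells bear no line label, so loss of MLL3 and line of origin cannot be told apart between floxed and WT cells. The labels give 2 catalogue numbers for the H3K4me1 antibody, and one of them belongs to a product sold against H3K27ac, so the mark is named as labelled.

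Clustered protocadherins are cell adhesion proteins of neurons. Each neuron expresses its own combination of them, which serves in self-recognition of its branches. Most of the genes consist of a large variable exon with its own promoter, and in the alpha and gamma clusters this exon is spliced to constant exons shared by the whole cluster, while beta genes have no constant exons. Promoter choice is known to rest on CTCF and cohesin, which bring a promoter to distal enhancers past the variable exons, and on DNA methylation. The last genes of the alpha and gamma clusters, Pcdhac1, Pcdhac2, Pcdhgc3, Pcdhgc4 and Pcdhgc5, are the C-type genes, which many neurons express without such choice.

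The exonic regions lay largely on exons, which in these genes are chiefly the variable ones. An annotated exon covered a median of 83.71% of their bases, with a range from 37.98 to 100.0%, and 45 of the 61 held a transcript start. No intronic region overlapped an exon or held a start. Exonic regions had a median of 3.21 CpG dinucleotides per 100 bp, with 4.21 in the alpha, 2.56 in the beta and 3.26 in the gamma cluster, against 1.73 in exonic regions nearest other genes. Intronic regions had 0.89. The median width was 2933 bp for exonic and 2078 bp for intronic regions, and the median depth over the 8 groups was 80.3 and 39.1 normalized reads, against 34.8 over all regions.

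By the medians over all exonic regions the mark was denser in both mutants than in their controls, and by those over the introns it was sparser. In formative cells the median density of the 61 exonic regions was 35.1 normalized reads per kb in DKO and 38.9 in dCD, against 18.6 in floxed and 21.9 in WT cells. In naive cells it was 36.9 in DKO and 36.1 in dCD, against 24.3 in floxed and 22.9 in WT cells. The 20 intronic regions ran the other way, with medians of 13.2 in DKO and 12.1 in dCD against 20.6 in floxed and 18.6 in WT in formative cells, and of 12.8 and 12.5 against 25.5 and 23.5 in naive cells. In the controls exons and introns thus had similar densities, while in the mutants exons stood well above introns. Over all 186824 regions the mark was lower in the mutants: median densities in formative cells were 15.3 in DKO and 14.6 in dCD, against 18.5 in floxed and 20.5 in WT.

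**Figure D1:**
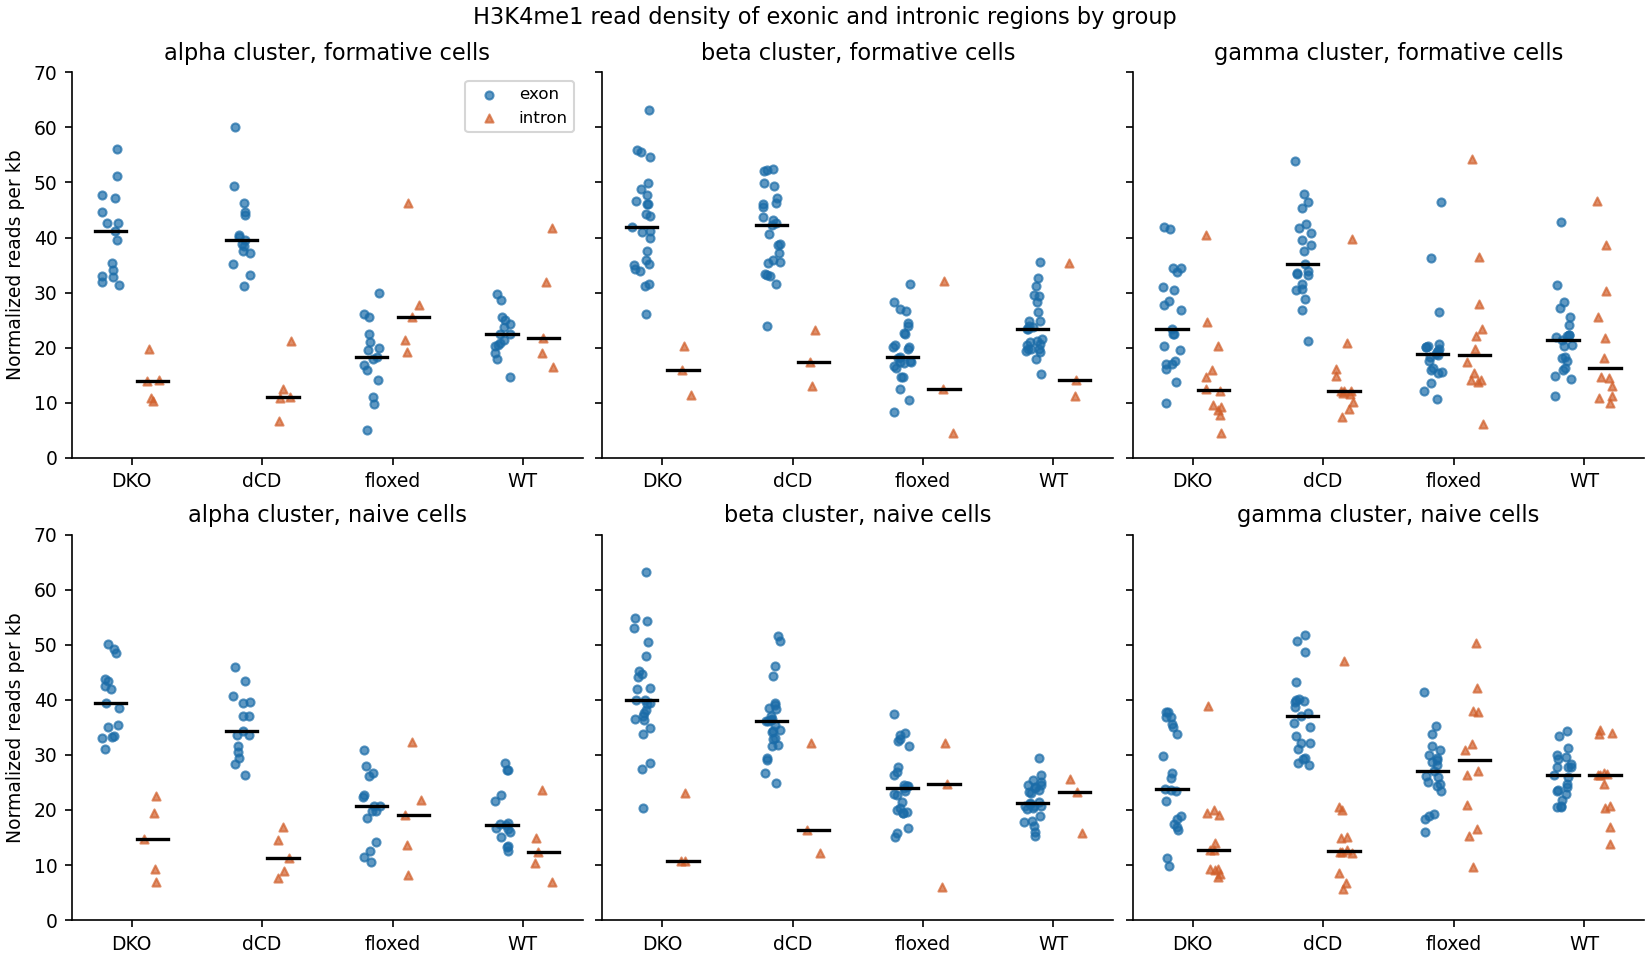
H3K4me1 density in normalized reads per kb at exonic (circles) and intronic (triangles) regions of the 3 clusters, for the 4 genotypes in formative (upper row) and naive cells (lower row); each point is a region with the pooled value of its group and the bars are medians. In the alpha and beta clusters DKO and dCD exons sit around 40 and the floxed and WT exons around 20, and in the gamma cluster only the dCD exons are raised as far.

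In formative cells, 33 of the 83 regions were at least 2-fold higher in DKO than in floxed cells, against 6.47% of all regions, and 6 were at least 2-fold lower, against 16.7%. The higher ones were mostly exons: 29 of 61 exonic regions passed the fold and 0 were lower, with a median difference of 0.90 (log2). Exonic regions nearest other genes were also higher on balance, with 17.3% past the fold and a median of 0.43. Above 0 were 54 of the 61 protocadherin exons, and 4713 of the 6431 exonic regions nearest other genes. Within the range of CpG density of the members, from 1.35 to 5.22 per 100 bp, lay 4464 such regions. Of these 20.8% passed the fold, with a median of 0.52, against 47.5% of the protocadherin exons. They share the range but are not matched within it. Their median was 2.00 CpG per 100 bp, against 3.21 for the protocadherin exons, and their median depth 54.0 normalized reads, against 80.3. Transcript starts were not counted in them. The count of higher protocadherin regions was smaller against another control. WT was set in place of the floxed line, a choice made after the values were seen. Then 8 of the 83 regions passed the 2-fold line upward and 7 downward, against 4.47 and 20.2% of all regions. Of the exonic regions 9.84% then passed the fold upward, no more than the 10.8% of exonic regions nearest other genes and the 11.5% of those in the same CpG range, so the excess of exons past the fold was not seen against WT. Above 0 were 53 of the 61, with a median of 0.71, against 0.26 and 0.35 for those 2 sets of other exons.

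Naive DKO cells exceeded floxed cells by at least 2-fold at 10 regions, against 4.36% of all regions, and fell short by as much at 10, against 15.9%. All 10 of the higher regions were exonic and had passed in formative cells too. Exonic regions had a median of 0.64, against 0.14 for exonic regions nearest other genes, of which 6.67% were that much higher (8.04% in the members' CpG range). Above 0 were 50 of the 61, and 3749 of the 6431 nearest other genes. Here the comparison with WT gave more, not fewer, with 18 regions higher, against 2.54% of all regions, and 9 lower, against 16.2%. All 18 were exonic, 29.5% of the 61, against 3.7% of exonic regions nearest other genes and 3.9% of those in the CpG range.

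The highest single differences between DKO and floxed cells were at alpha exons. All 15 alpha exons were above 0 in both states, with medians of 1.07 in formative and 0.97 in naive cells. At least 2-fold higher were 66.7% of them in formative cells, against 6.47% of all regions and 17.3% of exonic regions nearest other genes, and 46.7% in naive cells, against 4.36 and 6.67%. Against WT these shares were 13.3%, or 2 of 15, in formative and 60.0%, or 9 of 15, in naive cells, with all 15 again above 0 in both states and medians of 0.75 and 1.06. Other exons passed the fold against WT in 10.8 and 3.7% of cases. The variable exon of Pcdha7 (chr18:36974864-36976625, exon) led, with 60.2 normalized reads in DKO, 65.6 in dCD, 9.1 in floxed and 31.7 in WT formative cells, and with 68.0 in DKO, 59.1 in dCD, 18.6 in floxed and 31.0 in WT naive cells. Its difference between DKO and floxed was 2.65 in formative and 1.83 in naive cells. The floxed value stood apart on the low side, 1.73 below WT in formative cells, and the difference between DKO and WT was 0.92 and 1.12.

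Pcdha8 (chr18:36992233-36993206, exon) was next, with 46.0 normalized reads in DKO, 32.4 in dCD, 9.5 in floxed and 14.2 in WT formative cells, and 42.6 in DKO, 27.6 in dCD, 12.2 in floxed and 13.0 in WT naive cells. DKO exceeded floxed by 2.26 and 1.78, and exceeded WT by 1.68 and 1.70, so for this exon both controls were low. Pcdha1 (chr18:36929688-36933327, exon), the first gene of the cluster, had a difference of 1.52 in formative and 1.48 in naive cells. The smallest difference of an alpha exon in naive cells was 0.21, at Pcdha3 (chr18:36945783-36948680, exon).

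The C-type genes at the end of the alpha cluster had smaller formative differences than that cluster's median. Pcdhac1 (chr18:37089334-37091691, exon) had 105.1 normalized reads in DKO, 104.0 in dCD, 61.6 in floxed and 57.4 in WT formative cells, a difference of 0.76 between DKO and floxed, and of 0.34 in naive cells. The exon of Pcdhac2 (chr18:37142184-37145819) had 149.7, 141.5, 92.9 and 92.9 normalized reads in the same groups, a difference of 0.67, and 0.97 in naive cells.

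In the beta cluster, 18 of 25 exonic regions were at least 2-fold higher in formative DKO than in floxed cells and all 25 were above 0, with a median of 1.15. These 18 are 72.0% of the beta exons, against 6.47% of all regions and 17.3% of exonic regions nearest other genes. With WT as control 4 of the 25 passed the fold, where 4.47% of all regions and 10.8% of other exons did, with all 25 above 0 and a median of 0.80. In naive cells 3 passed the fold (12.0%, against 4.36 and 6.67%) and 24 were above 0, with a median of 0.78, while with WT as control 9 passed (36.0%, against 2.54 and 3.7%) with a median of 0.87. Pcdhb15 (chr18:37474352-37476205, exon) led in formative cells, with 63.5 normalized reads in DKO, 44.4 in dCD, 15.4 in floxed and 36.6 in WT. Its difference of 1.99 stood beside a floxed value 1.21 below WT. Pcdhb6 (chr18:37332920-37336464, exon) followed with 1.50, again with a floxed value below WT, by −0.94.

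The 3 beta exons past the fold in naive cells were Pcdhb7 (1.37), Pcdhb14 (1.19) and the first of the 2 Pcdhb13 regions (1.15). Pcdhb14 (chr18:37448385-37450528) had 97.0 normalized reads in naive DKO, 77.8 in dCD, 42.1 in floxed and 52.4 in WT cells. The exception was Pcdhb9 (chr18:37402092-37403430), with 27.2 normalized reads in DKO, 48.5 in dCD, 32.6 in floxed and 27.8 in WT naive cells, a difference of −0.26, and of 0.57 in formative cells.

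In the gamma cluster the DKO difference varied along the gene order. Of its 21 exonic regions 1, Pcdhga1 (chr18:37659965-37664933, 1.06), was at least 2-fold higher in formative DKO than in floxed cells. This is 4.76%, against 6.47% of all regions and 17.3% of exonic regions nearest other genes. In naive cells 0 were higher, against 4.36 and 6.67%, and 2 were lower, or 9.52%, against 15.9 and 5.55%. Among the A- and B-type genes, which alternate along the cluster, the 10 regions before Pcdhgb4 were all above 0 in naive cells, with a median of 0.52. The 10 from Pcdhgb4 on were all below 0, with a median of −0.79. In formative cells the medians were 0.79 and −0.11. Differences followed the order of the genes with a Spearman's rho of −0.886 in formative and −0.838 in naive cells over these 20 regions. The regions lie side by side and share their libraries, and the place of the split was chosen after the values were seen. CpG density was also higher past the split, with medians of 4.09 per 100 bp from Pcdhgb4 on and 2.59 before it, and its part in the result was not tested.

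Regions on both sides of that split show it in reads. Pcdhga3 (chr18:37673926-37677386, exon) had 117.2 normalized reads in DKO, 128.5 in dCD, 66.6 in floxed and 85.5 in WT naive cells. Pcdhgb5 (chr18:37730530-37734243, exon) had 36.6 in DKO, 109.6 in dCD, 106.3 in floxed and 89.8 in WT naive cells. Only DKO was low there, with a difference of −1.47 to floxed cells, the lowest of any protocadherin exon in the 4 comparisons of a mutant with its control. Pcdhgb8 (chr18:37761126-37764814, exon) was the other exon at least 2-fold lower, with 41.7 in DKO against 92.7 in floxed naive cells (−1.10).

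The C-type exons at the end of the gamma cluster differed little. The Pcdhgc3 exon (chr18:37803713-37810351) had differences of 0.19 in formative and 0.34 in naive cells between DKO and floxed. The broad region over Pcdhgc5 (chr18:37813573-37828279), 14707 bp wide and the deepest of the 83 with a mean of 591.1 normalized reads, had −0.14 and 0.06. No exonic region is named for Pcdhgc4, whose start site lies inside this broad region. The 1 intronic region named for Pcdhgc4 (chr18:37811877-37812865), the shallowest with a mean of 12.4 normalized reads, had −0.47 and −0.06.

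**Figure D2:**
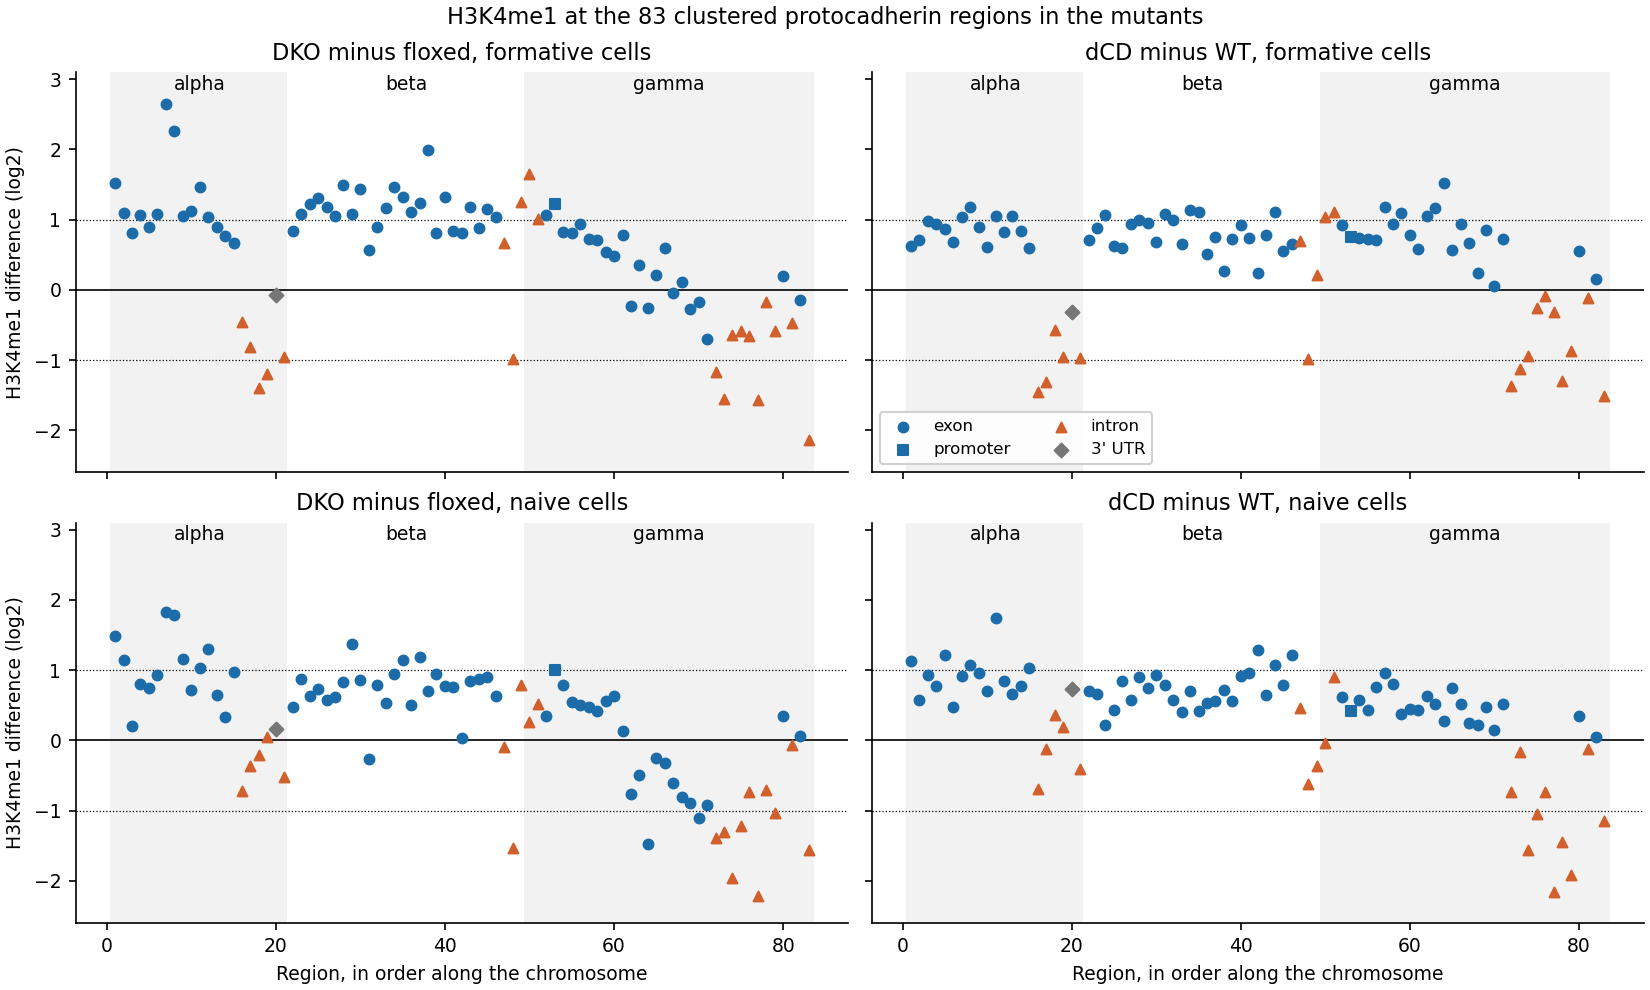
H3K4me1 difference (log2) between DKO and floxed cells (left) and between dCD and WT cells (right) at each of the 83 regions in their order along the chromosome, in formative (upper) and naive cells (lower); marker shapes give the region's class, shading the cluster, and dotted lines a 2-fold difference. Exons of the alpha and beta clusters lie above 0 in all panels except Pcdhb9 in naive DKO (−0.26), and the gamma exons are all above 0 in dCD, while in DKO 7 of 21 are below 0 in formative and 10 of 21 in naive cells, all of them from Pcdhgb4 on.

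In dCD the exons of all 3 clusters were higher. In formative cells 16 of 83 regions were at least 2-fold higher in dCD than in WT cells, against 2.59% of all regions, and 6 were lower, against 20.1%. In naive cells 8 were higher, against 1.55%, and 6 lower, against 13.9%. All 61 exonic regions were above 0 in both states, with medians of 0.78 and 0.66, against 0.25 and −0.03 for exonic regions nearest other genes and 0.34 and 0.11 for those in the same CpG range. Exonic regions past the fold numbered 14 in formative and 8 in naive cells, 23.0 and 13.1% of the 61, against 7.84 and 2.55% of exonic regions of that CpG range.

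By cluster the exonic medians in formative dCD cells were 0.86 in alpha, 0.75 in beta and 0.73 in gamma, and in naive cells 0.92, 0.70 and 0.48. The largest formative difference was at Pcdhgb5, with 124.9 normalized reads in dCD against 41.5 in WT cells (1.53), the same exon that was low in naive DKO. The largest naive difference was at the first of the 2 Pcdha11 regions (chr18:37010426-37011697, exon), with 58.3 against 17.1 (1.75). Pcdhb19 (chr18:37496887-37497479, exon) had 27.4 against 11.2 normalized reads (1.28) and Pcdhb22 (chr18:37518207-37521089, exon) had 146.0 against 61.7 (1.22) in naive cells.

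The gamma gradient of the DKO was not seen in dCD. The A- and B-type regions before Pcdhgb4 had medians of 0.77 in formative and 0.51 in naive cells, and those from Pcdhgb4 on had 0.79 and 0.49. Spearman's rho with gene order was −0.259 and −0.377 over the 20 regions. The difference between the 2 mutants' gradients was not tested, since each group has 1 pooled value.

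Both mutants shared the direction at most regions. In the 4 comparisons of a mutant with its control, 49 of the 61 exonic regions were above 0 throughout, with 15 of 15 in alpha, 24 of 25 in beta and 10 of 21 in gamma. Of the 20 intronic regions 14 were below 0 throughout. These joint counts were not made over other regions. With DKO against floxed cells alone, 54 of the 61 exons were above 0 in formative and 50 in naive cells. Of the 4464 other exons in the CpG range, 3643 and 2926 were. Below 0 were 16 of the 20 introns in each state, against 46551 and 53272 of 87572 introns nearest other genes. The DKO and dCD comparisons share no libraries, and across regions their differences had a Pearson's r of 0.153 in formative and 0.462 in naive cells over the 61 exons, and of 0.772 and 0.757 over the 20 introns. These are descriptions over neighbouring regions, without a test.

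Calls at the 2-fold level in the 4 mutant comparisons depend on how groups are scaled. The median over all regions was lower in the mutants, by −0.21 in formative and −0.21 in naive DKO relative to floxed, and by −0.40 and −0.35 in dCD relative to WT. After subtraction of each group's own median, 45 regions were higher and 4 lower in formative DKO, or 54.2 and 4.82%, against 11.2 and 11.8% of all regions. In naive DKO there were 23 and 8, or 27.7 and 9.64%, against 8.06 and 10.6%. In dCD, 53 were higher and 2 lower in formative cells, or 63.9 and 2.41%, against 10.8 and 9.69% of all regions. In naive dCD there were 34 and 4, or 41.0 and 4.82%, against 6.8 and 5.63%. Exonic regions of the members' CpG range nearest other genes were higher after centring in 31.0% and 14.9% of cases in formative and naive DKO and in 29.1% and 14.1% in dCD, against 67.2, 36.1, 80.3 and 52.5% of the protocadherin exons. Centring left the exonic medians above 0 in all 4 comparisons, between 0.85 and 1.18, against 0.44 to 0.74 for those other exons, and the intronic medians below 0, between −0.51 and −0.16.

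By their medians intronic regions were lower in both mutants. In DKO relative to floxed cells 6 of 20 were at least 2-fold lower and 3 higher in formative cells, and 8 lower and 0 higher in naive cells, with medians of −0.65 and −0.71. In dCD relative to WT formative cells 6 were lower and 2 higher, or 30.0 and 10.0%, against 20.1 and 2.59% of all regions. In naive cells 6 were lower, or 30.0%, and 0 higher, against 13.9 and 1.55%. The medians were −0.91 and −0.51. Introns nearest other genes passed the lower threshold in 14.0% of formative and 14.6% of naive DKO comparisons, and in 17.0 and 12.0% for dCD, with medians of −0.06, −0.20, −0.24 and −0.30. They passed the upper threshold in 7.05 and 3.77% for DKO and in 2.72 and 1.22% for dCD. In formative cells the share of higher regions among the 20 was thus also above that of other introns.

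Introns near the last gamma genes held the lowest differences. At Pcdhgc5 (chr18:37828537-37830225, intron) there were 20.4 normalized reads in DKO, 27.2 in dCD, 91.6 in floxed and 78.7 in WT formative cells, and 23.7, 25.5, 71.1 and 57.1 in the same groups of naive cells. Both mutants were below both controls in both states, by −2.13 and −1.56 in DKO and by −1.51 and −1.15 in dCD. An intronic region upstream of Pcdhgc3 (chr18:37798101-37799563) had 11.6 in DKO, 8.4 in dCD, 55.4 in floxed and 39.1 in WT naive cells (−2.22 in DKO, −2.17 in dCD). In formative cells its controls were low as well, with 6.7 in DKO, 13.0 in dCD, 20.6 in floxed and 16.3 in WT.

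The 4 intronic regions nearest Pcdhga12 were lower in DKO and in dCD in both states. The first (chr18:37770142-37771838) had 27.2 normalized reads in DKO, 25.1 in dCD, 61.8 in floxed and 65.6 in WT formative cells. The variable exon of Pcdhga12 (chr18:37765768-37769392), which ends next to it, had 58.5, 164.4, 96.3 and 98.8 in the same groups. The exon and the adjacent intron thus ran in opposite directions in dCD, by 0.72 and −1.36, and in the same direction in DKO, by −0.69 and −1.17.

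Not all introns were lower. The 2 intronic regions just upstream of Pcdhga1 (chr18:37652281-37654540 and chr18:37654861-37658479) were at least 2-fold higher in formative DKO and dCD cells. The second had 146.4 normalized reads in DKO, 144.0 in dCD, 71.4 in floxed and 65.5 in WT. Of the 3 intronic regions assigned to Pcdhb22, which lie 24873 to 57546 bp from its start site, the middle one (chr18:37566445-37569427) was lower in DKO by −0.98 and −1.53. The last (chr18:37574951-37576847) was higher in formative DKO by 1.25, where the floxed value of 8.7 normalized reads stood below 21.8 in DKO, 24.6 in dCD and 21.2 in WT.

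Few regions differed by 2-fold between floxed and WT cells. In formative cells 0 of 83 regions were at least 2-fold higher in floxed than in WT cells, against 0.526% of all regions, and 3 were lower, against 3.83%. In naive cells 0 were higher, against 0.864%, and 1 lower, against 4.38%. The 3 were the exons of Pcdha7 and Pcdhb15 and the last Pcdhb22 intronic region, and the last was also the 1 region of naive cells (−1.32). The exonic median was −0.22 in formative and 0.06 in naive cells, with 47 of 61 exons lower in floxed formative cells. These differences below the fold still mattered for the DKO counts. In formative DKO 39.8% of the 83 regions were at least 2-fold higher against floxed cells and 9.64% against WT.

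Between the states most protocadherin regions differed little. In WT cells 4 of 83 regions were at least 2-fold higher in formative than in naive cells, against 11.1% of all regions, and 3 were lower, against 11.4%. In floxed cells 2 were higher, against 9.33%, and 5 lower, against 10.6%. In DKO 0 were higher and 0 lower, against 1.2 and 1.25% of all regions, and in dCD 0 were higher and 1 lower, against 1.37 and 2.47%. The exonic medians were 0.01 in DKO, 0.15 in dCD, −0.35 in floxed and 0.06 in WT cells.

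The authors' deposited table holds the only test over replicates, formative against naive WT cells. Of the 83 regions, 6 in the authors' deposited table had an FDR under 0.05, 7.23% against 20.3% of all regions, with 3 higher, against 9.82%, and 3 lower, against 10.5%. At an FDR under 0.01 there were 4, against 11.3% of all regions, and 13 had an unadjusted p under 0.05, against 32.6%. The 3 higher regions were introns of Pcdhac2. The 3 lower ones were the Pcdhgb5 exon, with a log2 fold of −1.12 and an FDR of 0.00633 in the authors' deposited table, an intron of Pcdhga12 (chr18:37783784-37787306, −1.09, FDR 0.0048) and the Pcdhgc3 intronic region at chr18:37798101-37799563 (−1.40, FDR 0.0255).

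The 5 intronic regions of Pcdhac2 stood apart from the exons of the alpha cluster, whose WT median between the states was 0.17. The deepest (chr18:37177458-37181094) had 152.1 normalized reads in formative against 53.9 in naive WT cells, and 168.5 against 79.4 in floxed cells. In DKO it had 71.8 against 82.2, and in dCD 77.5 against 61.6. Its log2 fold in the authors' deposited table was 1.32, with an FDR of 3.5e-05. The controls thus had more of the mark in formative cells, and both mutants held a value near that of naive cells.

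A second of these regions (chr18:37170950-37174440) had 111.7 normalized reads in formative against 42.9 in naive WT cells, with a fold of 1.42 and an FDR of 0.00013 in the authors' deposited table. In floxed cells it had 89.1 against 66.9, a difference of 0.40, in DKO 49.4 against 51.2 and in dCD 43.5 against 39.1. The third called region (chr18:37188597-37191563) had 64.4 against 30.8 in WT cells, and 63.8 against 40.7 in floxed cells, a difference of 0.62. Its WT fold was 1.11, with an FDR of 0.0243 in the authors' deposited table. Another (chr18:37175797-37177115), with 21.8 against 9.0 in WT and 36.6 against 10.7 in floxed cells, had an FDR of 0.169 there. The remaining one (chr18:37164660-37167089), the nearest to the exon, had 46.5 against 57.4 in WT cells and ran the other way.

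Over these 5 regions the median difference between formative and naive cells was −0.05 in DKO, 0.30 in dCD, 0.62 in floxed and 1.24 in WT cells. At least 2-fold higher were 0 in DKO, 0 in dCD, 2 in floxed and 4 in WT cells. Of all regions 1.2% were in DKO, 1.37% in dCD, 9.33% in floxed and 11.1% in WT cells, so few regions passed in either mutant. Whether the transition differs between genotypes was not tested, since the pooled values allow no test of it. In formative cells all 5 were lower in DKO than in floxed cells, with a median of −0.95, and lower in dCD than in WT cells, with a median of −0.97. In naive cells the medians were −0.37 and −0.13.

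**Figure D3:**
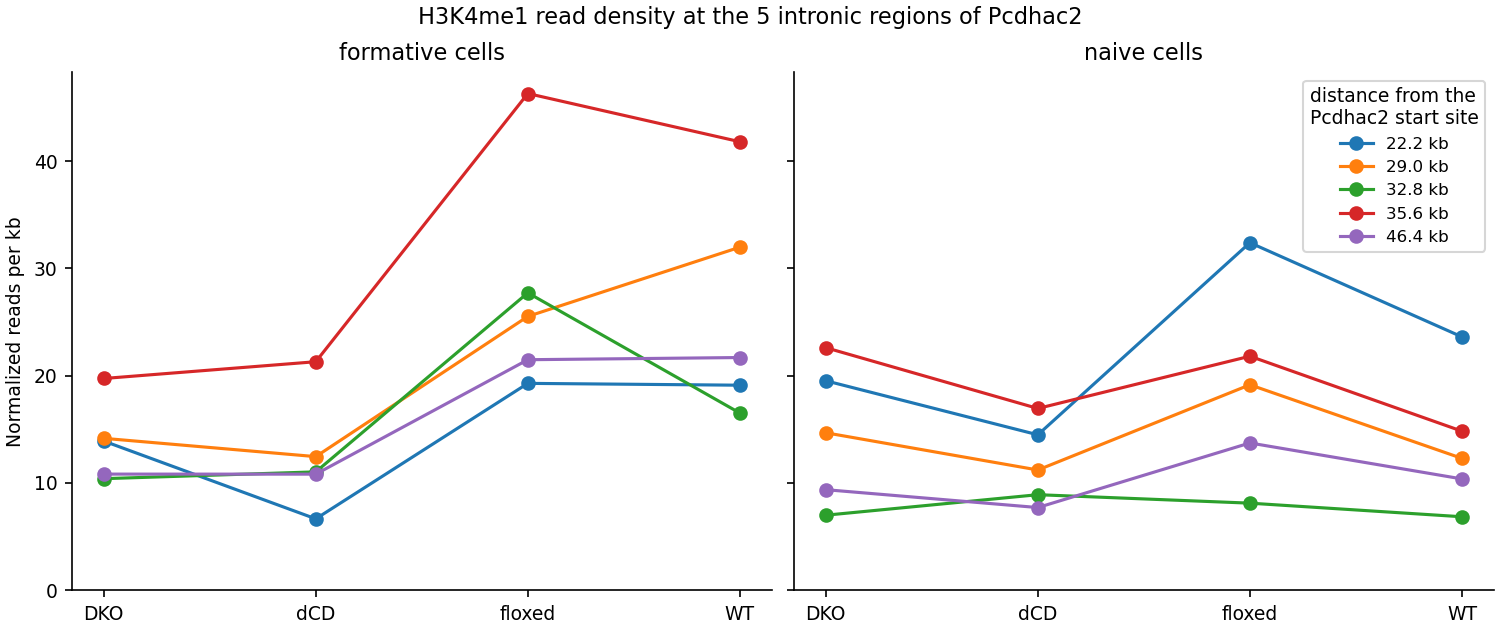
H3K4me1 density in normalized reads per kb at the 5 intronic regions of Pcdhac2 in DKO, dCD, floxed and WT cells, formative (left) and naive (right); each line is a region, named by its distance from the Pcdhac2 start site, with 1 pooled value per group. In formative cells every line is lower in DKO and dCD than in floxed and WT, and in naive cells the genotypes lie closer together for 4 of the 5 regions.

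The gamma cluster ran the other way between the states in the controls. Its 21 exons had medians of 0.01 in DKO and −0.02 in dCD, against −0.53 in floxed and −0.34 in WT cells. Exonic regions nearest other genes also lay below 0 on balance in the controls, with medians of 0.04 in DKO, −0.02 in dCD, −0.23 in floxed and −0.20 in WT cells. Pcdhgb5 had 41.5 normalized reads in formative against 89.8 in naive WT cells, and 45.1 against 106.3 in floxed cells, while in DKO it had 37.3 against 36.6 and in dCD 124.9 against 109.6. DKO thus held the lower level in both states and dCD the higher. The 12 gamma introns had medians of −0.02 in DKO, −0.05 in dCD, −0.35 in floxed and −0.37 in WT cells.

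**Figure D4:**
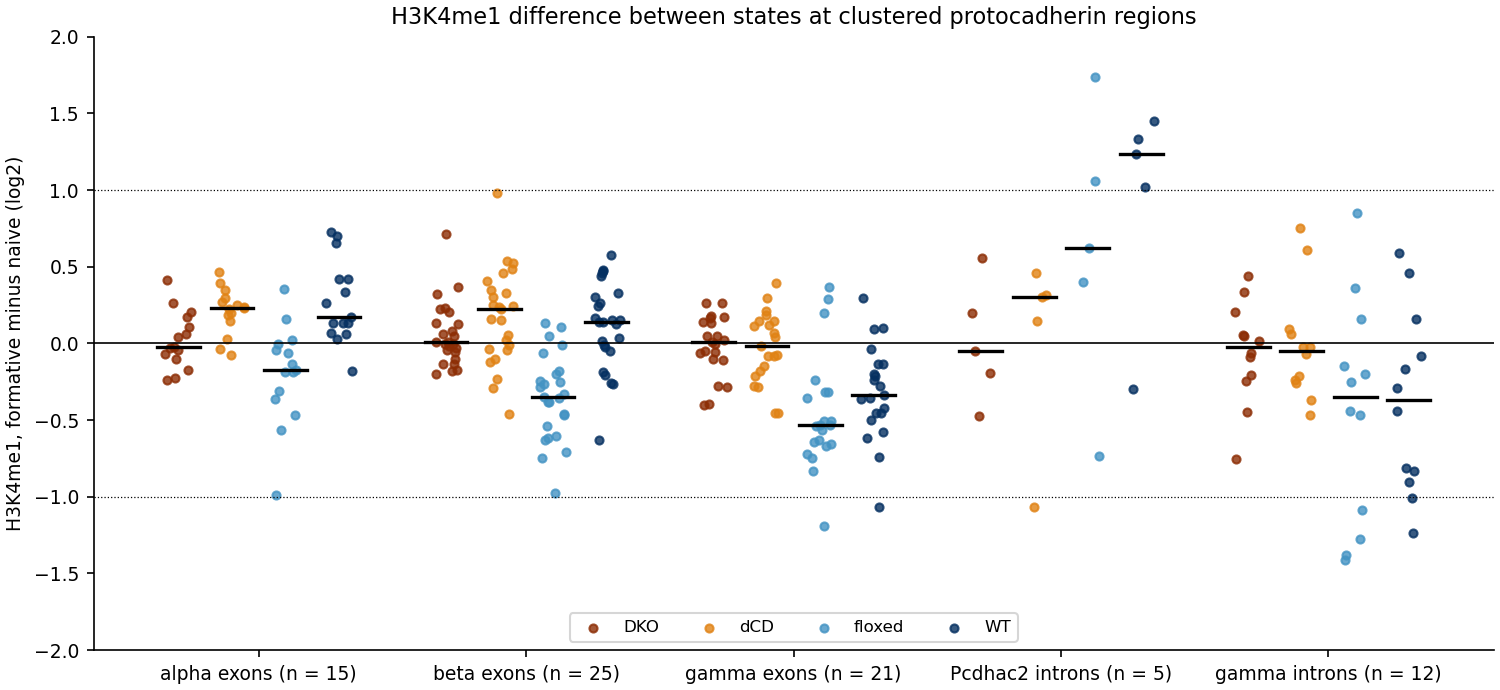
H3K4me1 difference (log2) between formative and naive cells in DKO, dCD, floxed and WT cells for the exons of the 3 clusters, the introns of Pcdhac2 and the introns of the gamma cluster; each point is a region, bars are medians and dotted lines mark a 2-fold difference. The Pcdhac2 introns lie above 1 in 4 of 5 cases in WT cells and in none in DKO or dCD, and 18 of 21 gamma exons lie below 0 in floxed and in WT cells, against 10 in DKO and 11 in dCD.

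RNA was compared through the log2 folds of the authors' deposited table, which come from samples outside this series and set DKO against WT, not against the floxed line. The table held a fold for 11 of the 57 genes, 2 beta and 9 gamma genes. Gamma transcripts share their constant exons, and related variable exons are similar in sequence, so the values of single gamma genes are uncertain. The deposited columns carry no p-value. In formative cells 4 genes were at least 2-fold higher in DKO, against 6.99% of genes with a fold, and 0 lower, against 5.65%. In naive cells 4 were higher, against 9.62%, and 4 lower, against 11.7%.

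Both beta genes were higher in DKO in the authors' deposited table, Pcdhb22 with log2 folds of 3.59 in formative and 2.55 in naive cells, and Pcdhb14 with 2.15 and 2.36. Their exons also carried more H3K4me1 in DKO than in WT cells, by 0.90 and 1.28 at Pcdhb22 and by 0.95 and 0.88 at Pcdhb14. The exons of the other beta genes, which have no RNA fold, were likewise above WT, except Pcdhb9 in naive cells (−0.04). The higher mark was thus not particular to Pcdhb22 and Pcdhb14. Of the gamma genes in the authors' deposited table, Pcdhga6 was higher in both states (1.03 and 2.71), Pcdhga4 in formative cells (1.55) and Pcdhga3 in naive cells (1.68). Lower in naive DKO were Pcdhgb5 (−2.21), Pcdhgb2 (−1.37), Pcdhga12 (−1.33) and Pcdhga1 (−1.03), while in formative cells the same 4 genes had −0.35, 0.40, 0.99 and −0.55.

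Pcdhgb5 and Pcdhga12 lie past the split of the gamma cluster, where the exonic H3K4me1 differences of naive DKO to floxed cells were negative. Pcdhgb2 and Pcdhga1 lie before it, where they were positive. Against WT, the control of the RNA folds, the naive exonic differences were −1.23 at Pcdhgb5 and −0.46 at Pcdhga12. They were 0.53 and 0.25 at Pcdhgb2 and 0.18 at Pcdhga1, whose introns had −0.03 and 0.64. RNA and the exonic mark thus differed in sign at Pcdhgb2 and Pcdhga1 in naive cells, but the exon of Pcdhga1 was close to WT. The C-type genes Pcdhgc4 (0.16 and −0.15) and Pcdhgc5 (−0.13 and −0.80) stayed within 2-fold in the authors' deposited table. Between formative and naive cells 0 of the 11 genes were at least 2-fold higher in WT, against 19.1%, and 1 was lower, Pcdhga4 (−1.14), against 9.77%. In DKO 3 were higher, Pcdhgb5 (1.46), Pcdhga12 (1.35) and Pcdhga4 (1.06), against 20.0%, and 0 lower, against 5.25%, in the authors' deposited table.

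**Figure D5:**
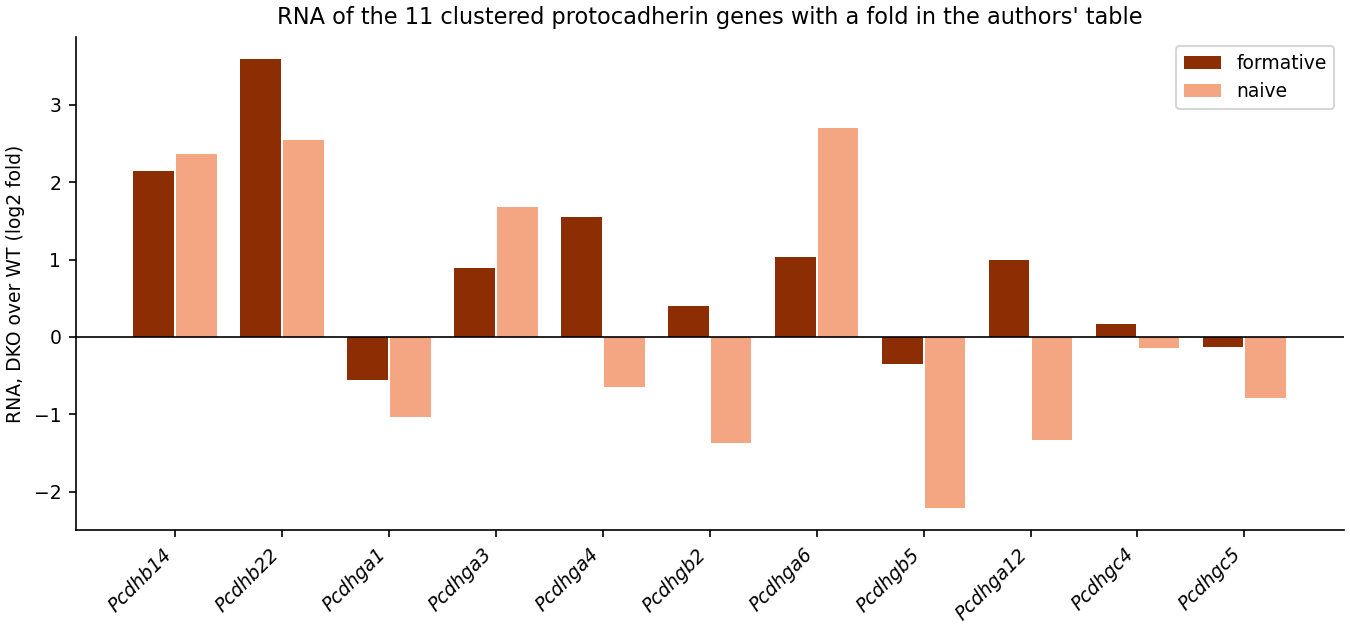
RNA of the 11 clustered protocadherin genes that have a value in the authors' deposited table, as log2 fold of DKO over WT in formative (dark) and naive cells (light), in gene order. The 2 beta genes are higher in both states, and Pcdhgb2, Pcdhgb5, Pcdhga12 and Pcdhga1 are below −1 in naive cells.

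H3K27ac, a mark of active enhancers and promoters, was read at the same regions from log2 folds of the authors' deposited table, also from samples outside this series. The values are coarse at these genes, with folds beyond 4 in size at several regions and exact zeros at others, and carry no test. In WT cells 4 of the 5 Pcdhac2 introns were at least 2-fold higher in formative than in naive cells in the authors' deposited table, with folds of 2.01, 2.12, 4.10 and 4.15, against 33.0% of all regions. These 4 regions are those with at least 2-fold more H3K4me1 in formative WT cells. In DKO 3 of the 5 were at least 2-fold higher in formative than in naive cells in H3K27ac, with folds of 1.61, 2.71 and 1.50 in the authors' deposited table, against 21.7% of all regions, and 2 lower, with −1.08 and −4.57, against 18.0%. H3K27ac at those 3 regions was thus higher in formative than in naive DKO, while H3K4me1 was near the naive level. Against formative WT cells the H3K27ac folds of DKO at the same 3 regions were −0.58, −1.95 and 0.07. Of the 5 introns 0 were at least 2-fold higher in formative DKO than in WT and 2 lower, against 18.9 and 27.8% of all regions.

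Of the 12 gamma introns, 8 were at least 2-fold lower in naive DKO than in WT cells in the authors' deposited table, with a median of −1.45, against 22.8% of all regions. In formative cells 5 of the 12 were higher and 4 lower, with a median of 0.09, against 18.9 and 27.8% of all regions. In WT cells 7 of the 12 were below the 2-fold line in formative relative to naive cells, with a median of −1.45, against 18.8%. The Pcdhgc3 intronic region at chr18:37798101-37799563 had −3.61 in naive DKO against WT and 2.28 in formative DKO. Among the 25 beta exons 12 were at least 2-fold higher in naive DKO than in WT cells, against 24.7% of all regions. There 3 were lower, against 22.8%, and the median was 0.89.

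At the exons as a whole H3K27ac did not follow the H3K4me1 differences closely. Of the 15 alpha exons, 3 passed 2-fold upward and 7 downward in formative DKO against WT in the authors' deposited table, where the same 18.9 and 27.8% of all regions did. In naive cells 2 were higher and 3 lower, against 24.7 and 22.8% of all regions. All 15 had more H3K4me1 in DKO than in WT cells in both states. Of the 25 beta exons 6 were higher and 9 lower in formative DKO, against 18.9 and 27.8% of all regions. The 21 gamma exons had 8 higher and 3 lower in formative DKO in the authors' deposited table, against 18.9 and 27.8% of all regions. Their share of higher regions was thus above that of all regions there. In naive DKO 6 were higher and 4 lower, against 24.7 and 22.8%, which was near the shares of all regions.

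Genes around the clusters and related genes were read the same way. Protocadherins outside the clusters, such as Pcdh7, Pcdh9 and Pcdh10, lack the shared exons and had 136 regions nearest 11 of 12 listed genes. Formative DKO cells had 4 of them higher by at least 2-fold than floxed cells and 67 lower (median −0.98). These are 2.94 and 49.3%, against 6.47 and 16.7% of all regions. Formative dCD cells had 3 higher and 65 lower than WT (−0.96), or 2.21 and 47.8%, against 2.59 and 20.1%. In naive cells 10 were higher and 46 lower in DKO (−0.41), or 7.35 and 33.8%, against 4.36 and 15.9%, and 4 higher and 29 lower in dCD (−0.25), or 2.94 and 21.3%, against 1.55 and 13.9%. Between the states 54 were higher and 4 lower in formative than in naive WT cells (0.70), or 39.7 and 2.94%, against 11.1 and 11.4%. Pcdh9, Pcdh18 and Pcdh1 gave 39, 30 and 22 of the 136 regions. Pcdh10, with 1 region, went the other way, by 0.72 in formative DKO and 1.06 in formative dCD against their controls. The 1 region of Pcdh11x was also higher there, by 0.76 and 0.35. The 136 regions were not split by class.

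Genes flanking the clusters on chromosome 18, such as Hars, Zmat2 and Diaph1, had 51 regions nearest 18 of 20 listed genes. In DKO against floxed cells 5 were higher and 12 lower in formative cells (median −0.20), or 9.8 and 23.5%, against 6.47 and 16.7% of all regions. In naive cells 1 was higher and 9 lower (−0.01), or 1.96 and 17.6%, against 4.36 and 15.9%. In dCD against WT formative cells 2 were higher and 3 lower (0.08), or 3.92 and 5.88%, against 2.59 and 20.1%. In naive cells there were 1 and 7 (−0.23), or 1.96 and 13.7%, against 1.55 and 13.9%. Single genes went both ways in formative DKO against floxed cells. Arap3, with 19 of the 51 regions, had a mean of −0.95, while Hars, Zmat2 and Diaph1 had means of 0.33, 0.80 and 0.14.

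The 19 listed regulators of the clusters, among them Ctcf, Rad21, Smchd1 and the DNA methyltransferase genes, had 211 regions, with 10 higher and 27 lower in formative DKO against floxed cells (median −0.10) and 3 and 38 in naive cells (−0.54). The formative shares of 4.74 and 12.8% lay below the 6.47 and 16.7% of all regions, and the naive shares of 1.42 and 18.0% stood against 4.36 and 15.9%. The 16 listed signalling partners of the proteins, among them Ptk2, Wasf1 and Fyn, had 218 regions, with 15 higher and 31 lower in formative (−0.08) and 6 and 36 in naive DKO (−0.20). Their shares of 6.88 and 14.2%, and of 2.75 and 16.5%, were near those of all regions. As sets, markers of the states followed their labels in WT. Of 326 regions nearest 11 naive markers, among them Esrrb and Klf4, 13 were higher and 87 lower in formative than in naive cells (−0.51). These are 3.99 and 26.7%, against 11.1 and 11.4% of all regions. Of 154 nearest 9 formative markers, among them Fgf5 and Otx2, 56 were higher and 1 lower (0.71), or 36.4 and 0.649%. Not every gene followed its label. The naive markers Tbx3 and Nr0b1 had means of 0.195 and 0.42, and Esrrb (−0.10), Otx2 (0.12) and Dnmt3b (0.07) differed little.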

How the data were processed

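CUT&RUN libraries of H3K4me1 were read from 1 processed table of the series, which holds 16 H3K4me1 libraries among 21 samples (1 IgG and 4 MLL4 libraries were not analysed here). Per the submitters' processing notes, Trim Galore, Bowtie2, SEACR, DiffBind and deepTools were used with mm10; their versions and roles, and any use of the yeast spike-in, were not given in the sources used here. The deposited levels are log2 values, 1 column for both libraries of a group per the file headers, and CKO in a header was read as the floxed line. The deposited p-value and FDR compare formative with naive WT cells. The deposited log2 folds of RNA and H3K27ac come from samples outside the series. Another 14 columns of levels were not used, and 2 regions of the table without levels were left out.

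Levels followed log2 of 1 plus a constant times reads over squared width (slope on log2 width of −2.00), so they were compared only within a region and converted to normalized reads and reads per kb; the added 1 slightly shrinks differences. Median normalized reads per region ran from 29.6 to 39.3 over the 8 groups, and 46.9 to 92.6 at the members. Total depth is unknown, so no interval is given. A per-region test was planned, but pooled columns allow none. Calls are 2-fold differences, 1.0 on the log2 scale, in 10 comparisons, counted with code tested on simulated data. Members and gene lists were chosen with earlier results of these data known. Named regions are the 2 highest and 2 lowest per cluster and comparison, all C-type regions and genes with an RNA fold past 2-fold, with examples of them given; the few others named were chosen after their values were seen. CpG density and exon overlap used GRCm38 with GENCODE vM21; all region ends lay within its chromosomes. Alternatives were centring, quantile scaling, 5 added reads, a minimum of 32 reads, membership by position, an FDR of 0.01, and WT as control of DKO, which was added after seeing the data.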

Additional observations from a re-analysis of the deposited data

How the results depend on the processing

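No paired analysis was possible because the table pools the 2 libraries of each group in 1 column, and for the same reason no replicate could be left out. Depth limits the shallow regions most: 13 of the 83 regions had a mean under 32 normalized reads, and differences there rest on few reads. Of the counts per comparison, 85 stayed within 1.5 times the value reported under an alternative and 20 did not. Membership by position moved none. The balance of higher and lower regions could change, as in naive DKO against floxed, with 10 and 10 as reported and 23 and 8 after centring. Centring on group medians gave 23 higher regions in naive DKO against floxed (10 as reported), 53 higher and 2 lower in formative dCD against WT (16 and 6), 34 higher in naive dCD (8) and 1 higher in the dCD transition (0). Quantile scaling gave 22, then 46 and 2, and 31 for the same 4 mutant counts, and 1 lower region in the WT transition (3). With 5 reads added, 9 were higher in formative and 5 in naive dCD, 2 higher in the WT transition (4) and 0 lower in the dCD transition (1). Among the 70 regions with at least 32 reads, 3 were lower in formative DKO against floxed (6), 3 lower in naive dCD (6), 0 lower in naive floxed against WT (1) and 1 higher in the floxed transition (2). With WT as control, 8 were higher in formative DKO (33) and 18 in naive DKO (10). Of the single regions named, 542 values kept their direction and side of the 2-fold level, 8 passed it and 13 no longer did. An FDR of 0.01 in the authors' deposited table left 4 regions. Causes were not tested.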

Other observations

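The C-type genes had 16 regions in all, 4 of them exonic. Their exonic densities had medians of 41.8 normalized reads per kb in DKO, 45.3 in dCD, 31.2 in floxed and 28.5 in WT formative cells, and of 37.3, 36.4, 27.8 and 25.4 in the same groups of naive cells. The other alpha exons, from Pcdha1 to Pcdha12, had 39.5 in DKO, 39.5 in dCD, 18.0 in floxed and 21.4 in WT formative cells, and 41.9, 34.3, 20.7 and 17.3 in the same groups of naive cells. The C-type medians were thus the higher ones in 7 of the 8 groups, and the lower one in naive DKO. The 12 further C-type regions, 11 of them intronic, included the regions of Pcdhac2 and Pcdhgc3 described above.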
